A study of Mus musculus with 4 samples.

Results

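Angptl4, Pdk4 and 8 further genes of fatty acid supply, oxidation and storage were described in the tibialis anterior muscle, which is made mostly of fast fibres, of mdx mice with and without matrix metalloproteinase 2 (MMP-2). The genes were chosen by name (Angptl4, Pdk4, Ucp3, Cpt1b, Cd36, Lpl, Fabp3, Acot2, Plin2 and G0s2), with earlier results of these data known. Their counts beside the shares of all genes are therefore descriptions only. Their members on the array were all probe sets that the platform annotation assigned to a listed gene and to no other. A probe set is a group of short probes that together give 1 signal for a transcript. This gave 16 of 45037 probe sets, for 9 of the 10 listed genes and of 18193 genes in all. The probe set annotated to Cpt1b, the muscle carnitine palmitoyltransferase, also carried the symbols Chkb and Gm44502, so no value is given for it.

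The 4 groups were mdx at 1 month, mdx/MMP-2-/- at 1 month, mdx at 3 months and mdx/MMP-2-/- at 3 months, all of strain C57BL/6J, with 1 Affymetrix mouse expression array each. All 4 groups carry the mdx mutation, which removes dystrophin, so no array shows healthy muscle; the labels do not say in which cells MMP-2 was deleted, how the deletion was made or whether animals were pooled. The mdx/MMP-2-/- groups are called mdx/MMP-2 null here. MMP-2 is a secreted gelatinase. The design asks what its loss alters in dystrophic muscle at each age. With 1 array per group there was no replicate spread, so "higher" and "lower" describe these arrays, and the conditions cannot be told apart from the animals sampled.

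Muscle takes up fatty acids that lipoprotein lipase (Lpl) releases from circulating triglycerides at the vessel wall, and Angptl4, a secreted protein, inhibits that enzyme. Cd36 carries fatty acids across the membrane, Fabp3 binds them in the cytosol, and Cpt1b commits them to mitochondrial oxidation. Pdk4 phosphorylates and so restrains pyruvate dehydrogenase, which spares glucose. Angptl4, Pdk4 and Ucp3 are known as genes that fasting, glucocorticoids and fatty acids acting on PPAR receptors induce in muscle. Plin2 coats lipid droplets, and G0s2 inhibits the lipase that opens them.

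Promoter sequence is shown for the 4 genes on which the comparisons turn besides Angptl4: Pdk4 and Ucp3, which lay on the same side at 1 month, and Plin2 and G0s2, which lay on opposite sides at 3 months. The RefSeq promoter table (GRCm38.p6) matched 7 of the 10 listed genes, not Angptl4, Lpl or Cpt1b. The 250 bases before each start site are printed on the strand of the gene, from chr6:5496279-5496528 (minus strand), chr7:100472741-100472990 (plus), chr4:86670060-86670309 (minus) and chr1:193273189-193273438 (minus). Capitals mark the nuclear receptor core motif AGGTCA or its reverse complement.
Pdk4: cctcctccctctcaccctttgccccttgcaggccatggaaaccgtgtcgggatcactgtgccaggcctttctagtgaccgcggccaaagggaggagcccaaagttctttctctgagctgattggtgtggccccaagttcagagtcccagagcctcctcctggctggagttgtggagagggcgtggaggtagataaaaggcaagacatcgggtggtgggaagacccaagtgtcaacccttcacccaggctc
Ucp3: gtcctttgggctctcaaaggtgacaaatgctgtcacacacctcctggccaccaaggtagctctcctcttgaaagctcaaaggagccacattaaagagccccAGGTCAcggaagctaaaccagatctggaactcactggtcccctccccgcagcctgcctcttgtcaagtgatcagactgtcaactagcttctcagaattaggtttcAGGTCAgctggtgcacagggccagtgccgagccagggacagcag
Plin2: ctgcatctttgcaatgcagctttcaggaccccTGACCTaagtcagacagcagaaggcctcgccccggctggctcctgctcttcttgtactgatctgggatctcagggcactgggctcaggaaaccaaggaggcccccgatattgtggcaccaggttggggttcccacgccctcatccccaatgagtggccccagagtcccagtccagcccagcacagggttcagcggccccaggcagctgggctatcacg
G0s2: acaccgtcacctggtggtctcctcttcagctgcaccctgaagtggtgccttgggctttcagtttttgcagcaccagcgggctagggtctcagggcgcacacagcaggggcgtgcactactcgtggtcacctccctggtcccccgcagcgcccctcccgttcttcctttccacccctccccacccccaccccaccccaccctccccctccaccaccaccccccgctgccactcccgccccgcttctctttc
Ucp3 held the core motif at -149 to -144 and at -44 to -39 from its start, and Plin2 held it on the opposite strand at -218 to -213. Pdk4 and G0s2 did not hold these letters in this window. Of 32851 promoters of the same length, 14% held the core motif on either strand. The direct repeat with 1 base between, AGGTCANAGGTCA, was in 0.0335% of them, the forkhead motif GTAAACA in 3.17% and the TATA box TATAAA in 12.4%, and none of these 3 was in the 7 matched promoters. A match of letters is a description and not a binding site.

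The deposited signals differed in overall brightness, with 2% trimmed means of 90.4 to 122, and were therefore quantile scaled. Signals are given on that scaled intensity scale, whose floor was 17.4, the 50th percentile of all signals, and whose highest value was 15431. Mmp2 read 985 and 805 in mdx at 1 and 3 months, and 24.7 and 40.9 in mdx/MMP-2 null, which fits the labels. All 8 skeletal muscle genes used to check the tissue were above the floor in every array; Ckm, muscle creatine kinase, lay between 13372 and 13752. The ratio of 3' to 5' probe sets for Actb, which rises when RNA is degraded or labelled short, was 1.05 and 1.19 at 1 month and 2.09 and 2.36 at 3 months, while that for Gapdh was 0.850 and 0.883 at 1 month and 0.935 and 0.936 at 3 months. The Actb ratio moves with age, and its part in the age differences was not tested. In whole muscle, fewer cells of a type and less RNA per cell cannot be told apart.

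Of the 16 probe sets, 14 were above the floor in all 4 arrays and 1 in none. All 9 genes had a probe set above the floor in every array, and each is represented by its brightest. Levels are compared between arrays for the same probe set only, since signals of different probe sets do not measure relative abundance.

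Among the genes of fatty acid supply, Angptl4 differed most between the genotypes. Its scaled signal was 128 in mdx against 323 in mdx/MMP-2 null at 1 month, then 205 and 328 at 3 months. Both mdx/MMP-2 null arrays were thus above both mdx arrays, and the mdx array at 1 month was lowest. The difference was 2.52-fold at 1 month and 1.60-fold at 3 months, or 1.34 and 0.68 as log2 differences; 0.109% and 4.23% of the 12801 genes above the floor lay as far above 0. Without scaling, the 3-month difference was 2.26-fold where the median gene was also higher, by 0.41 on the log2 scale. The values rest on 1 probe set of the kind that can match several transcripts (suffix _s_at), as the other Angptl4 probe set read 1.86 to 8.35, below the floor in all 4 arrays.

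Lpl, the target of Angptl4, was nearly level. It read 5125 in mdx against 5621 in mdx/MMP-2 null at 1 month, then 4683 and 4912 at 3 months. Its highest array was 1.20-fold above its lowest, and its other probe set ranged from 700.0 to 979. Its genotype differences were 0.13 and 0.07 on the log2 scale and changed sign with equal medians (-0.03 and -0.05), and at 3 months also with equal trimmed means (-0.11).

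The carriers Cd36 and Fabp3 moved little as well. Cd36 read 1362 and 1547 at 1 month, and 1531 and 1393 at 3 months, mdx first. Its 3 probe sets had log2 genotype differences of 0.18, 0.21 and -0.07 at 1 month. At 3 months they had -0.14, -0.24 and -0.13, but the brightest had 0.26 without scaling, so no direction is given. Fabp3 read 4758 in mdx against 4917 in mdx/MMP-2 null at 1 month, then 4183 and 3516 at 3 months. The mdx/MMP-2 null array at 3 months was lowest, 1.40-fold below its 1-month counterpart.

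**Figure D1:**
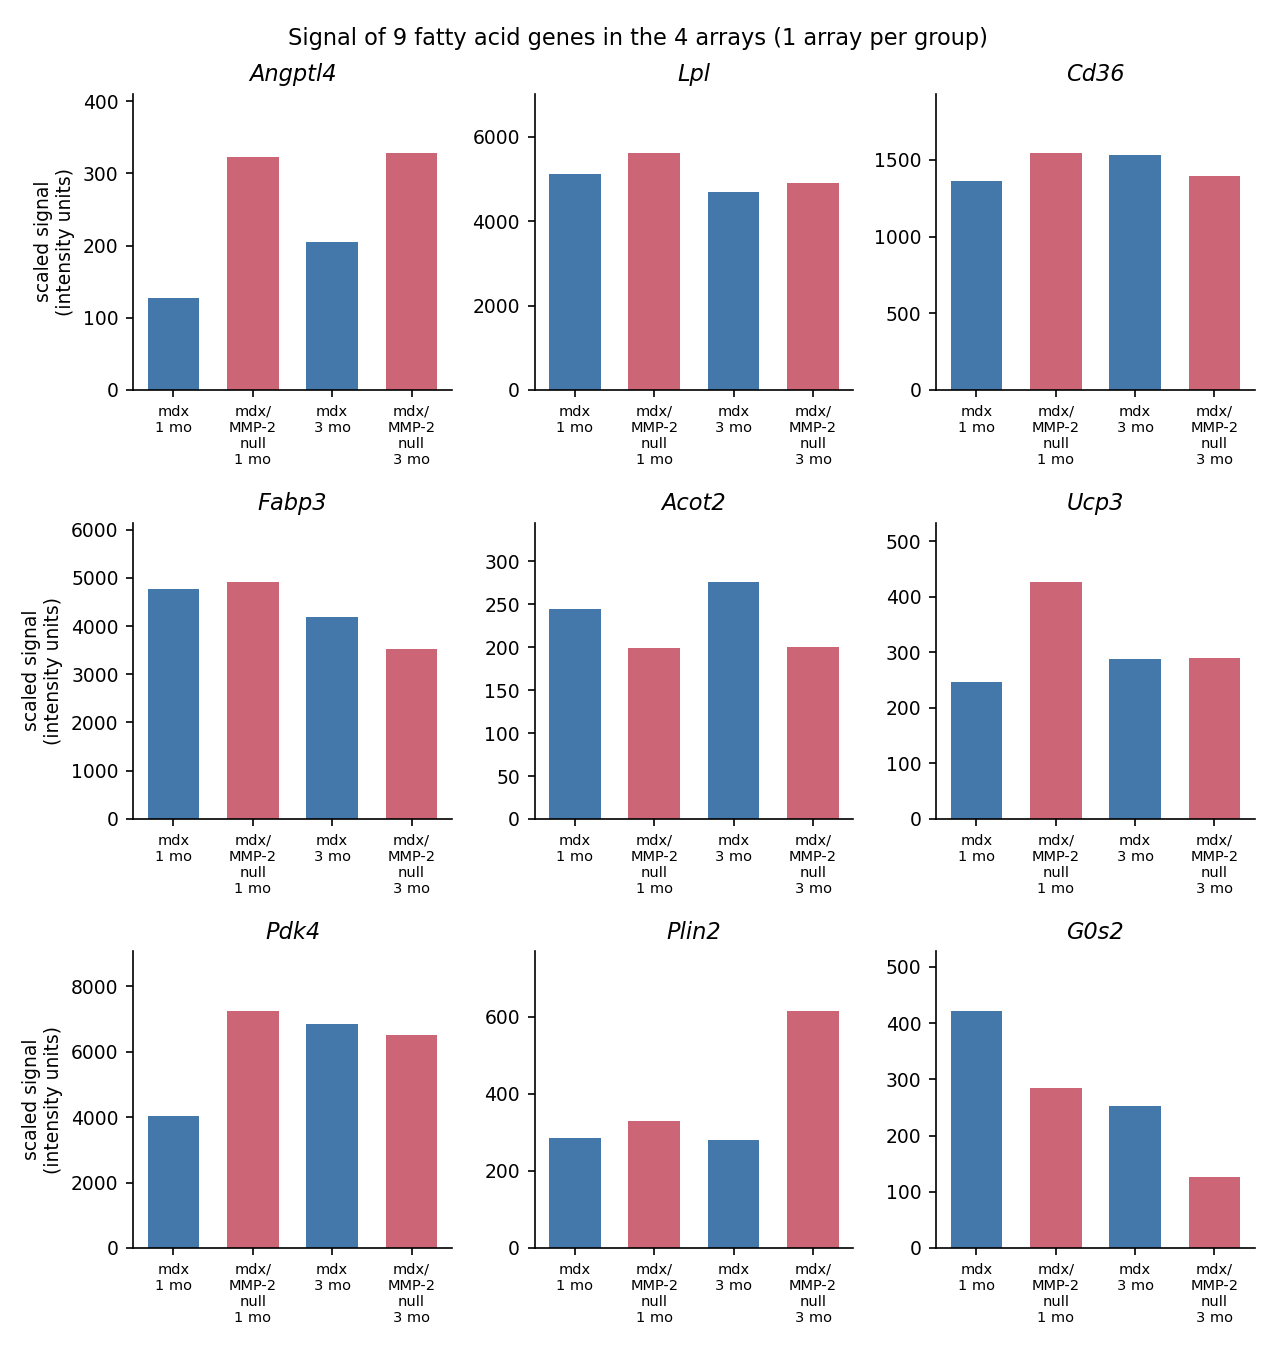
Scaled signal (intensity units, axes from 0) of the 9 measured genes, with 1 bar per array and 1 array per group; blue is mdx and red mdx/MMP-2 null. Angptl4 and Pdk4 are lowest in mdx at 1 month (128 and 4032), Plin2 is highest in mdx/MMP-2 null at 3 months (616), and G0s2 is lowest there (126).

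Pdk4, the switch between glucose and fat, was low in a single array. It read 4032 in mdx at 1 month against 7249.7 in mdx/MMP-2 null, and 6841 and 6504 at 3 months. The other 3 arrays lay within 1.11-fold of each other in the order mdx/MMP-2 null at 3 months, mdx at 3 months and mdx/MMP-2 null at 1 month. The genotype difference was 1.80-fold at 1 month (log2 difference 0.85, as far above 0 as 1.16% of genes) and -0.07 on the log2 scale at 3 months, where it was 0.17 without scaling. The gene has 1 probe set here.

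Of the genes of mitochondrial oxidation, Ucp3, an inner membrane carrier of muscle, was highest in mdx/MMP-2 null at 1 month. Its signals were 246 in mdx against 427 in mdx/MMP-2 null at 1 month, then 289 and 291 at 3 months. The first difference was 1.74-fold and the second 1.01-fold. Its other probe set had the same highest array, with 54.6 and 109 at 1 month and 54.2 and 75.3 at 3 months, and differed 2.00-fold and 1.39-fold.

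Acot2, a mitochondrial thioesterase that frees fatty acids from coenzyme A, had the lower scaled signal in mdx/MMP-2 null. It read 244 in mdx against 199 in mdx/MMP-2 null at 1 month, then 276 and 200.2 at 3 months. Both mdx/MMP-2 null arrays were below both mdx arrays, by 1.23-fold and 1.38-fold. This order holds on the scaled signals; the deposited signals were 222 and 197 at 1 month and 247 and 243 at 3 months, a log2 difference of -0.02 at 3 months where the median gene stood at 0.41. Its dimmer probe set read 45.9 and 32.8 at 1 month but 26.1 and 27.4 at 3 months, where the order was the opposite. A probe set shared with its near copy Acot1 was left out, and Acot1 itself was at the floor in all 4 arrays.

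The genes of fat storage, Plin2 and G0s2, lay on opposite sides. Plin2 read 285 in mdx against 331 in mdx/MMP-2 null at 1 month, then 280.3 and 616 at 3 months. The other 3 arrays were within 1.18-fold of each other, and the mdx/MMP-2 null array at 3 months stood alone above them. Its genotype difference was 1.16-fold at 1 month and 2.20-fold at 3 months, as far above 0 as 0.695% of genes. It was at least 2-fold at 3 months under all 9 other processing choices, with log2 differences of 1.12 to 1.59. The other floors and probe set rules could not alter this value, as its single probe set lay well above the floors. Only the other scalings and the pseudocount could.

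G0s2 had the lower signal without MMP-2 at both ages, and was lower at 3 months in both genotypes. Its signals were 422 and 285 at 1 month and 252 and 126 at 3 months, mdx first. The genotype difference was 1.48-fold at 1 month and 2.01-fold at 3 months (log2 differences -0.57 and -1.01), and 0.391% of genes lay as far below 0 at 3 months. The highest of the 4 arrays was 3.36-fold above the lowest, the widest span of the 9 genes. The 3-month difference lies at the 2-fold limit: with equal medians it was -0.93, and without scaling -0.55, where the median gene stood at 0.41.

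**Figure D2:**
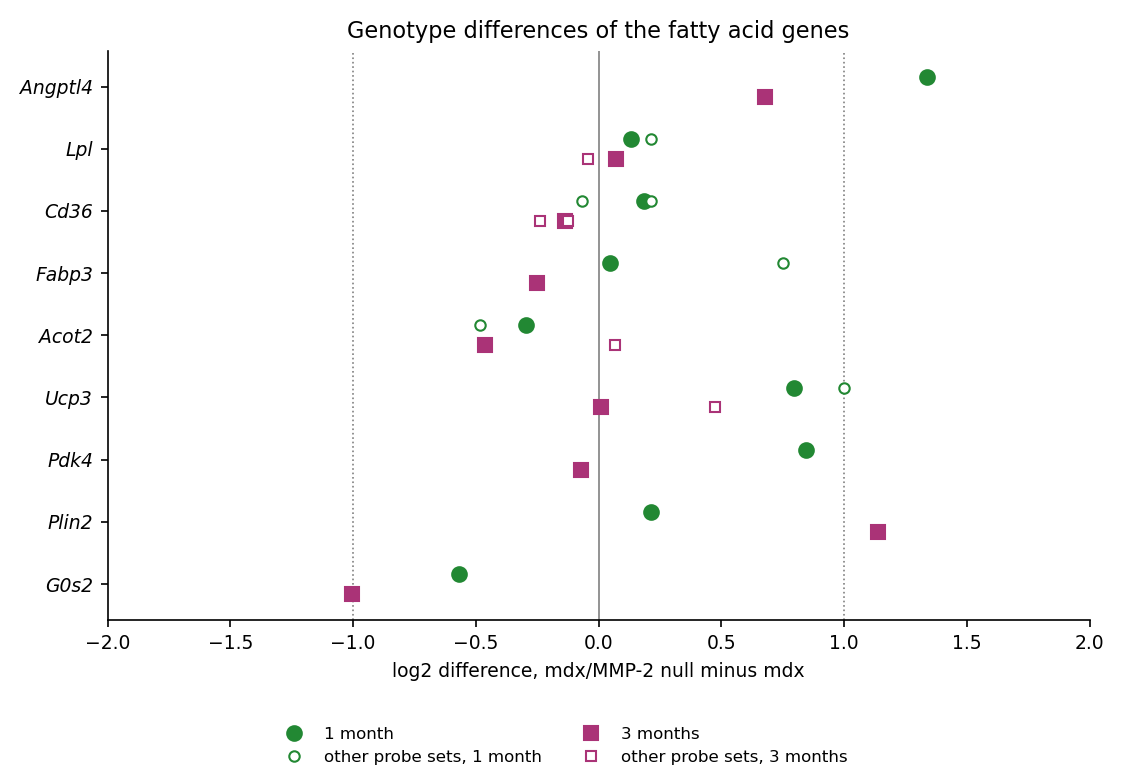
Log2 difference of mdx/MMP-2 null minus mdx for each gene at 1 month (circles) and 3 months (squares), filled for the brightest probe set and open for others not at the floor in both arrays; dotted lines mark 2-fold. Angptl4 lies right of the 2-fold line at 1 month (1.34), Plin2 right of it (1.14) and G0s2 on it at the left (-1.01) at 3 months.

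At 1 month more of the fatty acid genes were higher than lower in mdx/MMP-2 null. Of the 9 genes, 7 were higher and 2 lower, where 5986 of the 12801 genes were higher and 6180 lower. The median log2 difference of the 9 was 0.18 against 0.00 for all genes. With equal medians 5 of the 9 were higher and 4 lower, with 0.01 against -0.10. Angptl4 was at least 2-fold higher and no other member reached 2-fold either way, where 0.57% of all genes were higher and 0.578% lower by that much (1.15% together). Angptl4, Pdk4 and Ucp3 were at least 1.5-fold higher, as 3.52% of genes were, and none was 1.5-fold lower, as 3.56% were.

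At 3 months the members were spread to both sides. Of the 9 genes, 4 were higher and 5 lower, where 6092 of the 12801 genes were higher and 6153 lower. The median of the 9 was -0.07. Without scaling 7 of the 9 were higher, with 0.26 against 0.41 for all genes. Plin2 and G0s2 passed 2-fold, 1 in each direction, where 1.18% of genes were higher and 0.422% lower by that much (1.6% together). Angptl4 was also at least 1.5-fold higher, as 6.12% of genes were; G0s2 was the only member 1.5-fold lower, against 3.33% of genes.

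The genotype difference was not alike at both ages for several members. Set against 1 month, the difference at 3 months was lower for Pdk4 by -0.92, for Ucp3 by -0.79 and for Angptl4 by -0.66 on the log2 scale, and higher for Plin2 by 0.92. Between 2.23% and 5.82% of genes lay as far in the same direction. For Lpl, Cd36, Fabp3 and Acot2 the value was between -0.32 and -0.06, and for G0s2 it was -0.44. With 1 array per group these were not tested.

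Between 1 and 3 months in mdx, Angptl4 and Pdk4 were higher and G0s2 lower. Angptl4 was 1.60-fold and Pdk4 1.70-fold higher at 3 months, and G0s2 1.67-fold lower. None of the 9 members reached 2-fold, where 2.52% of genes did (0.976% higher, 1.55% lower). Past 1.5-fold were 5.97% of genes upward and 7.27% downward. Ucp3 and Plin2 had log2 differences of 0.23 and -0.02.

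In mdx/MMP-2 null the age differences had another shape. G0s2 was 2.27-fold lower at 3 months, the only member of 9 past 2-fold, where 2.69% of genes were (1.47% higher, 1.22% lower). Plin2 was 1.86-fold higher, and it and G0s2 were the members past 1.5-fold, as 7.41% of genes were upward and 6.7% downward. Which of the pair passed 2-fold followed the scaling: without scaling Plin2 was 2.38-fold higher and G0s2 1.81-fold lower, and with equal medians 2.28-fold and 1.89-fold. Ucp3 was 1.47-fold and Fabp3 1.40-fold lower. Angptl4 was nearly level at 0.02 on the log2 scale, and Pdk4 stood at -0.16, which was 0.05 without scaling. The genotype and age differences share arrays and are not independent of each other.

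**Figure D3:**
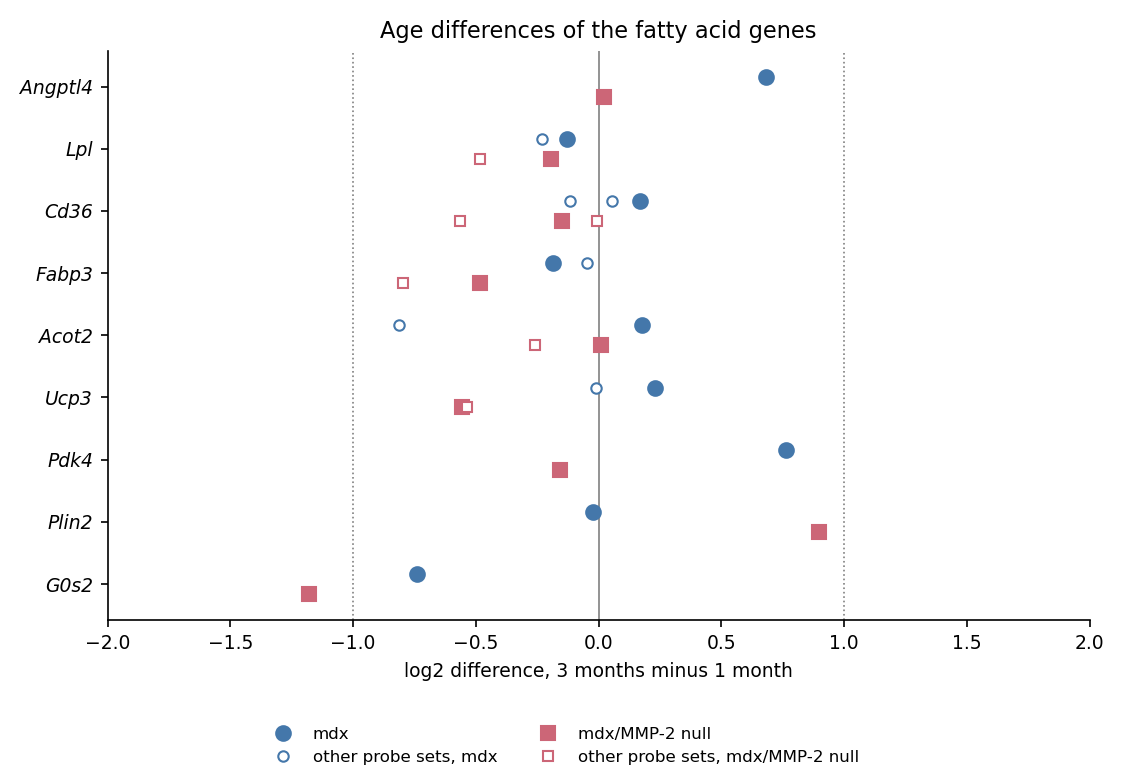
Log2 difference of 3 months minus 1 month for each gene in mdx (circles) and mdx/MMP-2 null (squares), filled for the brightest probe set and open for others; dotted lines mark 2-fold. G0s2 lies left of 0 in both genotypes (-0.74 and -1.18), while Pdk4 and Angptl4 lie right of 0 in mdx (0.76 and 0.68) and near 0 in mdx/MMP-2 null.

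An additive fit of genotype and age in limma used all 4 arrays, with the interaction as error and 1 residual degree of freedom per gene. At a Benjamini-Hochberg adjusted p of 0.05 it called 0 of the 9 members and 0% of the 12801 genes for genotype, and likewise 0 members and 0% of genes for age. The lowest adjusted p in limma among the members was 0.982 for genotype and 0.288 for age. At an unadjusted p of 0.05 it named 2 members for genotype, Angptl4 (mean log2 difference 1.01, SE 0.215) and G0s2 (-0.79, SE 0.182), as 4.37% of genes, and 1 for age, G0s2 (-0.96), as 13.7% of genes. Without scaling, Angptl4 was 1 of 21 genes of 12872 called for genotype (adjusted p = 0.0453 in limma); its adjusted p lay between 0.974 and 0.999 under the other choices.

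The wider pathway was followed with 8 lists of 130 further genes, of which 120 were measured. At 1 month 75 were higher in mdx/MMP-2 null and 42 lower, where 5986 of all 12801 genes were higher and 6180 lower. The median of the 120 was 0.05, and 1 passed 2-fold, Cidea, a droplet protein gene that was dim on these arrays, where 1.15% of all genes passed. At 3 months 44 were higher and 76 lower, where 6092 of all genes were higher and 6153 lower. The median of the 120 was -0.07. The metallothioneins Mt1 (2.91-fold higher) and Mt2 (2.82-fold higher) were the 2 that passed 2-fold, where 1.6% of all genes passed. Neither count past 2-fold stands apart from the share of all genes. These directions follow the scaling: with equal medians 38 were higher and 81 lower at 1 month, and without scaling 110 were higher and 10 lower at 3 months, where the median of all genes was 0.41. The list values below are those of the quantile scaling, and small medians have no settled direction.

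Close relatives of the members had other values. Of the kinases that act with Pdk4 on pyruvate dehydrogenase, Pdk1 had log2 differences of 0.04 and -0.17 at 1 and 3 months, and Pdk2 0.16 and -0.22. Pdk3, dim at 26.6 to 46.4, had -0.40 and 0.39. Angptl1 stood at -0.12 and -0.36, and Angptl7 at -0.38 and -0.72, the second lower in mdx/MMP-2 null under all 5 scalings and the first not without scaling (0.01 and 0.10). Among droplet coat genes, Plin4 was 1.31-fold and 1.28-fold higher in mdx/MMP-2 null, while Plin3 (0.00 and -0.13) and Plin5 (-0.08 and -0.16) stood closer to 0 at both ages than Plin2 did at 3 months; without scaling they were 0.33 and 0.31 at 3 months, below the median gene.

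Cpt1a, the liver form of carnitine palmitoyltransferase, which other cells of muscle also express, had the opposite order to Angptl4 at 1 month. It read 136 in mdx against 85.2 in mdx/MMP-2 null at 1 month, then 158 and 209 at 3 months. It was thus 1.60-fold lower at 1 month and 1.33-fold higher at 3 months. Of the binding proteins related to Fabp3, Fabp4 had log2 differences of 0.10 and -0.19 and Fabp5 of -0.04 and 0.52.

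Beta-oxidation enzymes had a median of 0.05 at 1 month, with 12 of 18 higher (1 of 18 with equal medians). At 3 months 13 of 18 were lower and the median was -0.14, among them Etfdh, which passes electrons from acyl-CoA dehydrogenases to the respiratory chain (1.39-fold lower), and Eci1, an enoyl-CoA isomerase (1.29-fold lower); without scaling 16 of 18 were higher at 3 months. None of the 18 reached 2-fold in any of the 4 comparisons. The pyruvate dehydrogenase list had 10 of 12 lower at 3 months (median -0.18) and none past 2-fold, where 1.6% of all genes passed. Without scaling 12 of the 12 were higher at 3 months (median 0.25), where the median gene stood at 0.41.

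The lipoprotein lipase and uptake list had medians of 0.05 and -0.07, and none of its 15 measured genes passed 2-fold. The list of acyl-CoA synthetases and thioesterases had 0.07 and -0.06, the carnitine shuttle -0.02 and -0.06, and droplet and lipolysis genes 0.08 and -0.07. Slc22a5, the carnitine importer, was 1.48-fold higher at 1 month and 1.70-fold lower at 3 months in mdx/MMP-2 null, with 90.6 and 134, then 149.6 and 88.2, mdx first. Pnpla2, the lipase that G0s2 inhibits, read 677 and 773 at 1 month and 723 and 705 at 3 months, so its 4 arrays lay within 1.14-fold of each other.

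Transcriptional regulators had medians of -0.14 and -0.17. Ppargc1a, a coactivator that drives mitochondrial genes, read 300.0 in mdx against 435 in mdx/MMP-2 null at 1 month, then 537 and 346 at 3 months. It was thus 1.45-fold higher and then 1.55-fold lower in mdx/MMP-2 null. Of the receptors through which fatty acids act, only Ppara and Ppard are given here. They read 109 and 115 (Ppara) and 56.8 and 79.2 (Ppard) at 1 month, and 113 and 86.2, and 60.7 and 76.3, at 3 months. The highest log2 difference of the list at 1 month, 0.69, was that of another gene, below the signal limit for naming.

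Fasting and glucocorticoid responsive genes had the highest median of the 8 lists at both ages, 0.13 and 0.29, with 17 and 15 of 23 higher. At 1 month Ddit4, an inhibitor of mTOR signalling, was 1.73-fold, Txnip, which limits glucose uptake, 1.72-fold, Nfil3 1.65-fold and Fkbp5, a glucocorticoid target, 1.53-fold higher in mdx/MMP-2 null. Txnip had its highest array at 1 month in mdx/MMP-2 null, as Pdk4 and Ucp3 did, with 1519 and 2617, then 1908 and 1819, mdx first. Fkbp5 did not: it read 147 and 225, then 272 and 395, and was highest in mdx/MMP-2 null at 3 months. The pattern of Pdk4 is thus not shown for the list as a whole. At 3 months Fbxo32, a ubiquitin ligase of atrophy, was 1.77-fold lower (572 against 1010.1) and Gadd45a 1.97-fold higher.

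**Figure D4:**
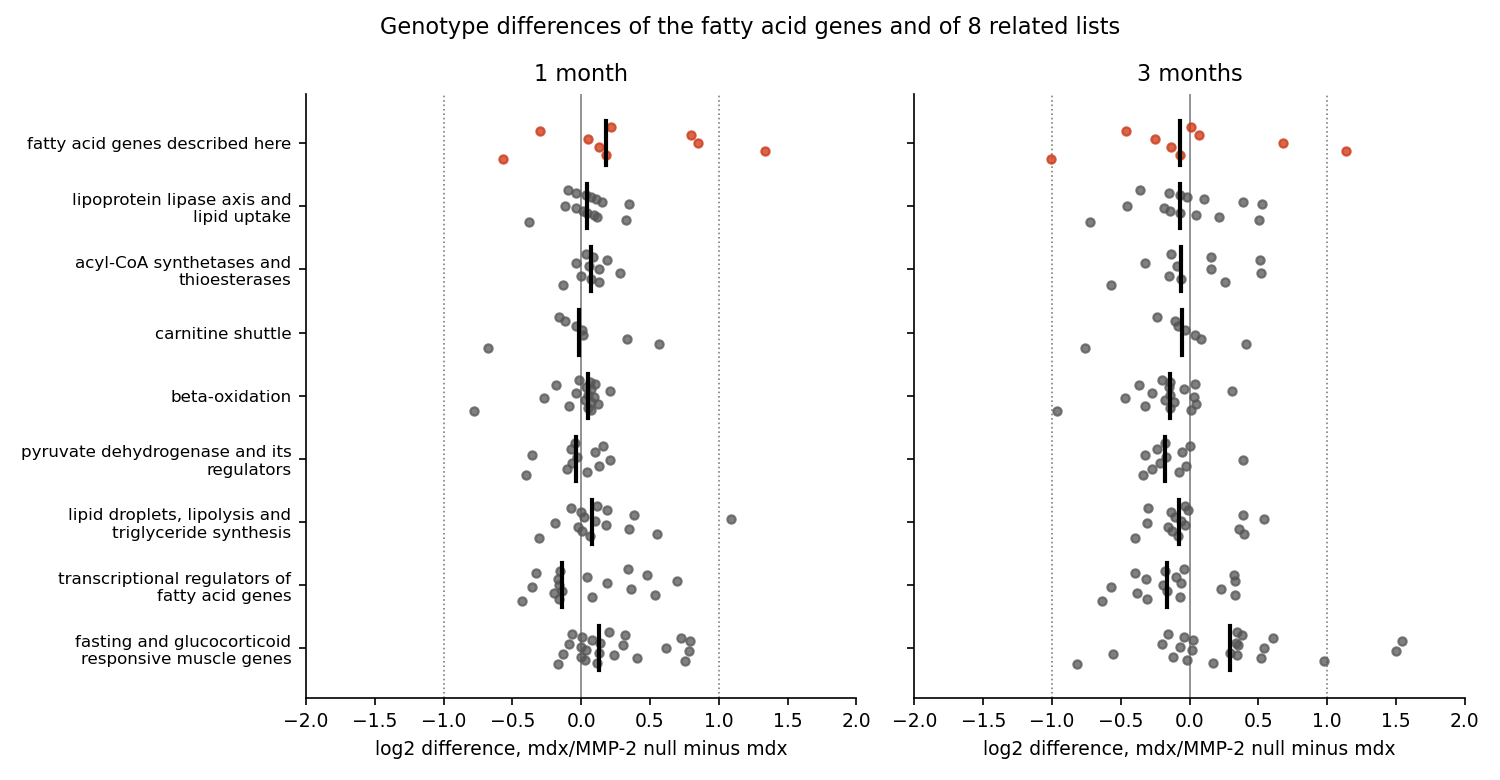
Log2 difference of mdx/MMP-2 null minus mdx at 1 month (left) and 3 months (right) for each measured gene (dots) of the 9 genes described here (red) and of 8 related lists (grey), with list medians as black bars and dotted lines at 2-fold. Most dots lie between the 2-fold lines; the medians of the 9 genes are 0.18 and -0.07.

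Markers of other cells that hold these transcripts differed between the arrays, and their part in the results was not tested. At 3 months the mdx/MMP-2 null array had the higher signal for all 12 macrophage markers, where Plin2 was highest: their summed signal was 9789 in mdx against 9277 in mdx/MMP-2 null at 1 month, then 6971 and 10398 at 3 months. The 12 were higher there under all 5 scalings. On the quantile scaling 6092 of all 12801 genes were higher there. The summed signal of the 6 measured neutrophil markers was 189, 209, 98.9 and 695 in the same order. All 9 slow fibre genes also had their higher 3-month signal in mdx/MMP-2 null, under all 5 scalings, with sums of 6266, 6752, 6012 and 8630.4. Of the adipocyte markers, Lep was at the floor in all 4 arrays and Adig in 3 of them, and Adipoq read 237 and 133 at 1 month and 104 and 129 at 3 months. The sum of the 7 measured adipocyte markers, mostly Fabp4, was 7199.6, 7565, 6513 and 5816. Endothelial markers, whose cells display lipoprotein lipase, summed to 3432 and 3660.2 at 1 month and to 2580.1 and 2442 at 3 months. With age, 12 of 12 were lower in mdx/MMP-2 null and 11 of 12 in mdx, where 5847 and 6102 of all 12801 genes were lower.

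**Figure D5:**
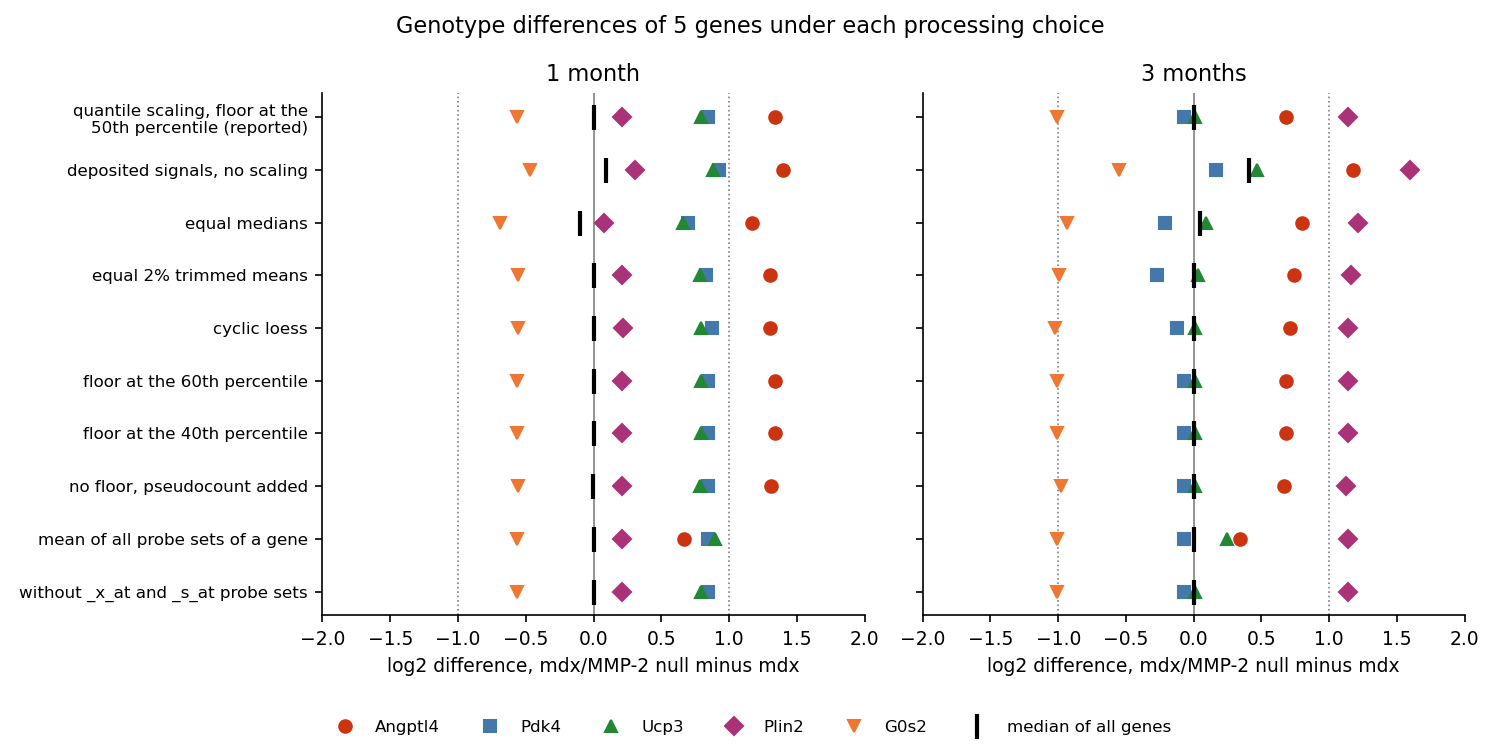
Log2 difference of mdx/MMP-2 null minus mdx at 1 month (left) and 3 months (right) for 5 genes under the reported processing and 9 other choices, with black ticks for the median of all genes and dotted lines at 2-fold. Plin2 stays right of the 2-fold line at 3 months (1.12 to 1.59), and Angptl4 at 1 month falls to 0.67 when its probe sets are averaged and has no value without _s_at probe sets.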

How the data were processed

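The authors deposited 1 linear MAS5 intensity per probe set; the submitters' processing notes name Expression Console as the software, and versions and the genome build are not given in the sources used here.

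Groups were taken from the sample labels. The 64 control probe sets were left out of scaling. The 4 arrays were quantile normalized (limma 3.58.1, R 4.3.3), signals below 17.4 were raised to it, and log2 was taken. Of 45037 probe sets, 34945 carried 1 gene symbol, 932 several and 9160 none here; 34741 of the first matched the RefSeq gene table by identifier, which changed 0 symbols. Each gene was represented by the brightest (mean log2) of its single-symbol probe sets, which left 12801 genes above the floor in at least 1 array. Differences between single arrays have no test. The number of arrays limits the precision. The additive fit (lmFit and eBayes, adjusted over 12801 genes) was tested on simulated data. Tables were made in Python 3.11.15 with pandas 2.3.3.

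The genes and lists were chosen with earlier results of these data known. Named were all members and their measured relatives except Angptl6, Lipg and Acot3. Up to 4 genes of a list were also named, those with the largest difference whose higher signal reached 85.4, the 75th percentile. List genes in relation to a member, among them Pnpla2, Ppara, Ppard and Pdk3, were chosen after their values were seen. Alternatives were 4 other scalings, floors at the 40th and 60th percentile, a pseudocount of 4.36 in place of the floor, 2 other rules for probe sets, folds of 1.5 and 3, a variance prior that follows the signal, and unadjusted p.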

Additional observations from a re-analysis of the deposited data

Results flagged for a closer look

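For 5 members the single difference of one pair of groups lay on the other side of 0 from that of the other pair. All these pairs of differences lay less than 1 apart on the log2 scale, the distance planned for such a flag. With 1 array per group none of these was tested. Between genotypes, Pdk4 was at 0.85 at 1 month and -0.07 at 3 months (a difference of -0.92 on the log2 scale), Cd36 at 0.18 and -0.14 (-0.32) and Fabp3 at 0.05 and -0.25 (-0.30). Between ages, Plin2 was at -0.02 in mdx but at 0.90 in mdx/MMP-2 null (a difference of 0.92), Ucp3 at 0.23 and -0.56 (-0.79), Pdk4 at 0.76 and -0.16 (-0.92) and Cd36 at 0.17 and -0.15 (-0.32). Apart from those of Ucp3, the opposite signs depend on the scaling. The signs of Ucp3 held under the 9 other processing choices, not all of which could alter them. Those of Ucp3 rest on its brightest probe set. Its dimmer probe set had age differences of the same sign, -0.01 (mdx) and -0.54 (mdx/MMP-2 null), on the quantile scaling. Without scaling the 3-month genotype difference was 0.17 for Pdk4, 0.26 for Cd36 and 0.04 for Fabp3, and the age difference in mdx/MMP-2 null 0.05 for Pdk4 and 0.24 for Cd36; with equal medians that of Plin2 in mdx was 0.06. The Cd36 values are those of its brightest probe set. Its 3 probe sets differed in sign at 1 month between genotypes and with age in mdx. They shared a sign at 3 months between genotypes and with age in mdx/MMP-2 null, on the quantile scaling.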

How the results depend on the processing

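Counts of the 9 members at or past 2-fold, or the genes behind them, depended on the processing. At 1 month between genotypes the count of 1 was 0 with the mean of all probe sets and 0 without _x_at and _s_at probe sets, where the second Angptl4 probe set below the floor takes part or replaces the first; it was 3 at 1.5-fold and 0 at 3-fold. At 3 months the count of 2 was 1 with equal medians, 1 with equal trimmed means and 1 with a pseudocount, as G0s2 came to lie between -0.93 and -0.99. It was 0 at 3-fold. Of the scalings and the pseudocount, which could alter the value of G0s2, only cyclic loess (-1.02) kept it past 2-fold. In mdx the count of age differences was 0, and 3 at 1.5-fold; in mdx/MMP-2 null it was 1, 2 at 1.5-fold and 0 at 3-fold. In the additive fit in limma, 0 members were called for genotype, 1 without scaling and 2 at unadjusted p; for age 0, and 1 at unadjusted p. Over all genes the fit called 0 for each; without scaling 21 of 12872 for genotype and 79 for age, with equal medians 1 and 11, and with the variance prior that follows the signal 1 and 130 of 12801. The other choices left the members' counts within 1.5 times, but not always for the same genes. Without scaling the 2 members at 3 months were Angptl4 and Plin2, not Plin2 and G0s2. For age in mdx/MMP-2 null the member was Plin2, not G0s2, without scaling and with equal medians.

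Of 400 single values of members under other choices, 366 kept their sign and side of 2-fold. Of the rest, 7 came to lie past 2-fold, 7 no longer did, and 20 below 2-fold changed sign. None past 2-fold changed sign. Many of the 366 could not move. The other floors altered no member, and leaving out _x_at and _s_at probe sets altered only Angptl4. Averaging probe sets could not alter Pdk4, Plin2 or G0s2, which have a single probe set. The count of 366 thus overstates how well the values held. Without scaling the median gene moved by 0.09 and 0.41 (genotype, 1 and 3 months) and by 0.26 (age, mdx/MMP-2 null), and with equal medians by -0.10 (genotype, 1 month) and 0.19 (age, mdx/MMP-2 null). Genes at least 2-fold higher and lower at 3 months were 151 and 54, and 855 and 13 without scaling. No paired analysis was possible because each group has 1 array. Pdk4, at up to 7249.7 of a highest signal of 15431, may be compressed; Fabp3 and Acot2 each have a dim second probe set near the floor.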

Other observations

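The 4-array patterns of Angptl4 and Pdk4 were set against those of 7739 other genes above the floor in all arrays, by the Euclidean distance between log2 signals centred on their mean. Nearest to Angptl4 were Dnajb12 (distance 0.16), Mroh1 (0.41), Tcf20 (0.42), Slfn2 (0.45) and Myh7, the slow myosin heavy chain (0.45), which read 159 and 409 at 1 month and 307 and 602 at 3 months, mdx first. Nearest to Pdk4 were Tmem222 (0.14), Bmp5, a growth factor (0.14), Map2k1, a kinase of the ERK pathway (0.16), Gadd45b, a stress response gene (0.16), and Klhdc1 (0.20); Gadd45b read 161 and 259 at 1 month and 284 and 248 at 3 months. Angptl4 and Pdk4 lay 0.64 from each other, at place 29 in the order from Angptl4 and at place 1945 in the order from Pdk4. Distances over 4 arrays are a description of these arrays.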
